A study of Homo sapiens with 16 samples.

Results

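Genistein, an isoflavone of soy, was compared with no drug in MiaPaCa2, an established human cell line from a pancreatic ductal adenocarcinoma. The comparison was taken from the sample labels, and it holds 4 of the 16 libraries of the series, with every gene of the count table considered. The genistein group has 2 biological replicates of cells given 50 μmol/L genistein for 24 hours, and the control group has 2 replicates of cells with neither genistein nor gemcitabine, collected at the same 24 hours. Replicates are labelled I and II in each group. All 4 cultures grew in DMEM with fetal bovine serum, and the labels do not say whether the controls received the DMSO in which genistein was dissolved. The other groups used here are MiaPaCa2 cells given 40 nmol/L gemcitabine, a nucleoside drug, with or without 50 μmol/L genistein for 24 hours, and the control and genistein groups of PANC1, another pancreatic cancer line, with 2 libraries in each.

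As background, genistein is a phytoestrogen that binds the nuclear estrogen receptors, acts on the membrane estrogen receptor GPER1 and inhibits protein tyrosine kinases and DNA topoisomerase II when its concentration is high. Immediate early genes such as EGR1 and FOS respond to growth factor and stress signals before other genes do. Metallothioneins are small proteins that bind zinc and copper. Genes of mitosis are transcribed mainly late in the cell cycle, and genes of replication before and during the copying of DNA. The question of the comparison was how genistein alone modifies the transcriptome.

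Reads counted on genes numbered 16850992 and 13445125 in controls I and II and 13101557 and 22254419 in genistein I and II. Replicates differed by more than counting noise, since chi-square divided by its degrees of freedom was 3.46 for the controls and 5.95 for the genistein libraries. Vimentin and some keratin genes were expressed, with VIM at 8001 and 7899 CPM in control and 8471 and 8191 CPM in genistein libraries. KRT19 was at 176 and 205 CPM in control and 209 and 177 CPM in genistein libraries. KRT7, another keratin gene among the carcinoma and ductal markers looked up, did not pass the low-count filter. EPCAM, an epithelial adhesion gene, had 0 counts in all 4 libraries, and CDH1, which encodes E-cadherin, had at most 1 count in any of them. The 6 acinar markers and the 5 islet markers that were looked up had 0 counts in all 4 libraries, as did the leukocyte markers PTPRC and CD3E. Levels are in CPM, the counts of a gene scaled to a common library total after TMM scaling, and differences are log2 fold changes of genistein relative to control, with standard errors (SE), so that a positive value is a higher level with genistein. The 2 values of a group are given in the order of replicates I and II.

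Of 16064 genes tested, 1335 were called, which is 8.31% of them. To be called, a gene needed 0.05 or less as its adjusted p from limma-voom, a log2 fold change of 0.4 or more in size, and more than 1 FPKM on average with genistein (FPKM is a level scaled to transcript length and sequencing depth). Genistein raised 671 genes, 4.18% of those tested, and lowered 664 genes, 4.13%. These shares are the background for each count of called genes in a gene list. The changes were mostly small: the median log2 fold change was 0.59 among the called higher genes and -0.67 among the called lower genes, and 78 of the former and 130 of the latter reached an absolute value of 1. The libraries of the groups did not overlap for any of the 1335 called genes, against 59.9% of all genes tested. The called genes comprised 1171 protein-coding genes, 69 long noncoding RNAs and 73 pseudogenes. A further 156 genes met the criteria of p and fold but not that of FPKM. This criterion uses the genistein group alone, so it removes genes that fell to a low level. It can keep genes that rose from a low level. Without it, 701 genes were higher and 790 lower. In bulk RNA, a change in the share of cells in a given state and a change in RNA per cell cannot be told apart. With a single control or genistein library left in the model, the count was 176 without control I, 259 without control II, 432 without genistein I and 1117 without genistein II.

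**Figure D1:**
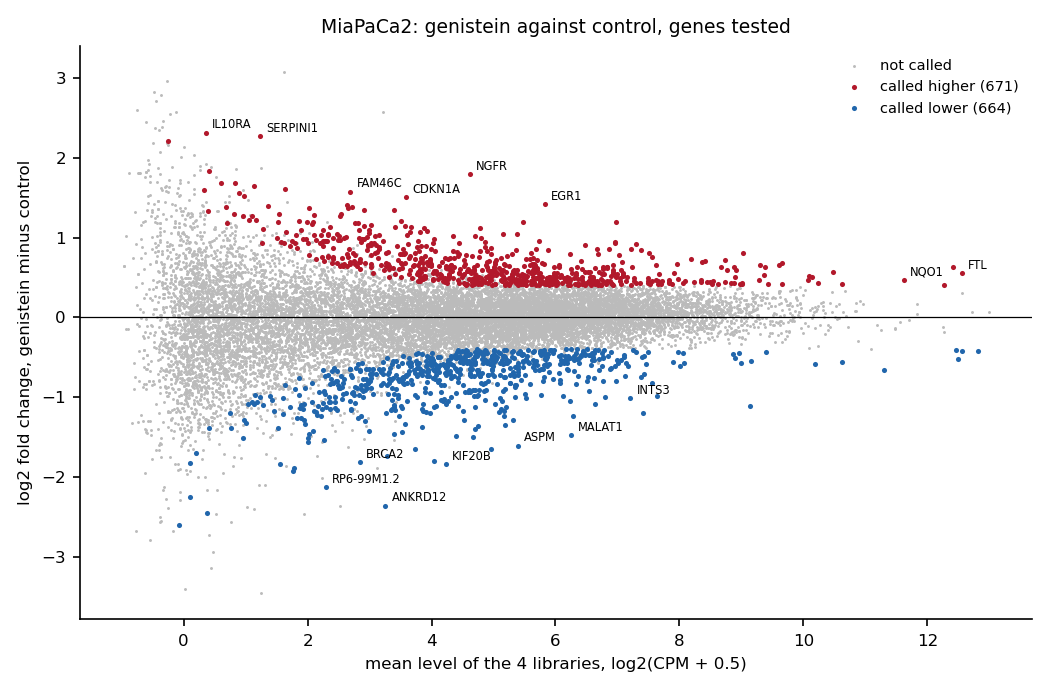
Each point is a tested gene, with the mean level of the 4 libraries on the x axis as log2(CPM + 0.5) and the log2 fold change of genistein relative to control on the y axis. The 671 genes called higher are red and the 664 called lower are blue, and most of them lie between 0.4 and 1 from the zero line.

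The largest rises among called protein-coding genes with at least 1 CPM in the higher group and no overlap between groups belonged to genes of different functions. SERPINI1, which encodes neuroserpin, an inhibitor of tissue plasminogen activator (chromosome 3, 167453031 to 167543357 in GRCh37), had 13 and 6 counts in controls I and II and 34 and 72 in genistein I and II. Its level was 0.792 and 0.458 CPM in control and 2.74 and 3.39 CPM in genistein libraries, a log2 fold change of 2.27 (SE 0.36, adjusted p = 0.00304). NGFR, the p75 neurotrophin receptor (chromosome 17, 47572655 to 47592370), was at 10.5 and 10.5 CPM in control and 43.0 and 32.1 CPM in genistein libraries. Both genistein libraries exceeded both controls by more than the replicates differed, with a log2 fold change of 1.80 (SE 0.19, adjusted p = 0.000461). CDKN1A, which encodes the cyclin-dependent kinase inhibitor p21 (chromosome 6, 36644237 to 36655114), rose from 6.15 and 5.65 CPM in control to 18.5 and 15.7 CPM in genistein libraries, and its log2 fold change was 1.51 (SE 0.17, adjusted p = 0.000549). VDR, the vitamin D receptor, was at 2.98 and 3.28 CPM in control and 8.37 and 8.29 CPM in genistein libraries. The replicates of VDR were nearly equal within each group, and the log2 fold change was 1.41 (SE 0.19, adjusted p = 0.00131). FAM46C, which encodes a poly(A) polymerase, was at 2.80 and 3.13 CPM in control and 9.26 and 8.58 CPM in genistein libraries (log2 fold change 1.58).

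Also among the 12 largest rises, IL10RA, the receptor subunit that binds interleukin 10, had 8 and 1 counts in controls I and II. It had 18 and 24 in genistein I and II, and its log2 fold change of 2.32 had a standard error of 0.63. Its FPKM with genistein was 1.91 and 0.340, so its mean was above 1 only through genistein I. The orphan nuclear receptor gene NR4A1 was at 0.548 and 1.22 CPM in control and 2.09 and 2.92 CPM in genistein libraries, and EGLN3, a prolyl hydroxylase of hypoxia-inducible factors, was at 0.365 and 0.917 CPM in control and 2.01 and 1.79 CPM in genistein libraries. Their log2 fold changes were 1.65 and 1.68. RND1, which encodes a small GTPase, rose by 1.61 on the log2 scale, the transcription factor gene KLF5 by 1.40 and NPL, which encodes N-acetylneuraminate lyase, by 1.38. SERPINI1, FAM46C, VDR, IL10RA, NR4A1, EGLN3 and KLF5 had a mean of less than 1 FPKM in control, from 0.0954 (IL10RA) to 0.730 (SERPINI1). These genes met the FPKM criterion only through their level with genistein. Like IL10RA, EGLN3 (1.27 and 0.822 FPKM) and KLF5 (0.869 and 3.07 FPKM) exceeded 1 in a single genistein library. Among the 12, SERPINI1, NGFR, CDKN1A, EGR1 and NPL passed the adjusted p under every alternative fit and with each library left out, whereas IL10RA, EGLN3, NR4A1 and KLF5 did not pass in 3 of the 4 fits that lacked a library.

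Genes with the smallest adjusted p were higher in both genistein replicates than in both controls. EGR1 is described with the immediate early genes below. TUFT1 was at 28.6 and 25.1 CPM in control and 59.5 and 63.0 CPM in genistein libraries (log2 fold change 1.19), and H1F0, a linker histone, was at 117 and 121 CPM in control and 209 and 217 CPM in genistein libraries (log2 fold change 0.85). SAT1, the acetyltransferase of polyamine breakdown, rose by 0.91 on the log2 scale, and EPHX1, microsomal epoxide hydrolase, by 0.93.

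Among the falls with the smallest adjusted p, INTS3, a subunit of the Integrator complex (chromosome 1, 153700526 to 153747284), was at 199 and 195 CPM in control and 97.8 and 98.1 CPM in genistein libraries. The decrease was the same in both replicates, with a log2 fold change of -1.01 (SE 0.08, adjusted p = 0.000109). TM4SF18, a tetraspanin-like membrane protein gene, fell from 104.7 and 96.2 CPM in control to 47.8 and 49.5 CPM in genistein libraries, a log2 fold change of -1.04. ABCC2, the export pump MRP2, was at 211 and 203 CPM in control and 121 and 126 CPM in genistein libraries (log2 fold change -0.75). PNISR, which encodes a nuclear protein rich in serine and arginine, was at 90.4 and 93.6 CPM in control and 41.3 and 50.7 CPM in genistein libraries (log2 fold change -0.99).

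The 12 largest falls, taken under the same rule as the rises, included genes of chromosome segregation, DNA repair and chromatin. ANKRD12, which encodes a nuclear protein with ankyrin repeats (chromosome 18, 9136226 to 9285983), had the largest, from 14.6 and 15.9 CPM in control to 2.50 and 3.25 CPM in genistein libraries, a log2 fold change of -2.36 (SE 0.27, adjusted p = 0.000678). In FPKM its fall was smaller, from 1.37 and 2.27 in control to 1.12 and 0.879 in genistein libraries. The mean FPKM with genistein, 1.002, was barely above the criterion. ANKRD12 was not called when log2(FPKM + 1) was fitted in place of counts. KIF20B, a kinesin of cytokinesis (chromosome 10, 91461347 to 91534696), was at 29.5 and 28.0 CPM in control and 6.52 and 9.28 CPM in genistein libraries, and ASPM, a protein of the spindle poles (chromosome 1, 197053251 to 197115824), at 66.1 and 59.0 CPM in control and 14.4 and 26.9 CPM in genistein libraries. In both genes, genistein I was the lowest library and genistein II lay between it and the controls, and the log2 fold changes were -1.84 and -1.61. SGOL2, which protects cohesion at the centromere, was at 20.2 and 18.6 CPM in control and 4.03 and 8.20 CPM in genistein libraries (log2 fold change -1.65). ESCO1, an acetyltransferase of cohesin, fell by 1.74 on the log2 scale, and the chromatin remodeller ATRX by 1.65. BRCA2, a gene of homologous recombination (chromosome 13, 32889223 to 32974405), was at 9.81 and 10.9 CPM in control and 1.53 and 4.43 CPM in genistein libraries with a log2 fold change of -1.81 and a standard error of 0.38. In FPKM the groups of BRCA2 overlapped, at 2.33 and 1.14 in control and 0.558 and 1.57 in genistein libraries. Its mean FPKM with genistein was above 1 only through genistein II. The golgin GOLGA4 fell by 1.80, the zinc finger gene ZNF181 by 1.89, the disulfide isomerase PDIA2 by 1.93 and CACNA1A, a pore subunit of voltage-gated calcium channels, by 1.53.

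CD14, a coreceptor for bacterial lipopolysaccharide and a marker of monocytes, completed the 12, at 4.69 and 5.58 CPM in control and 2.34 and 1.46 CPM in genistein libraries (log2 fold change -1.52). Over all 6 leukocyte markers, the summed level was 4.87 and 5.58 CPM in controls I and II and 3.06 and 1.74 CPM in genistein I and II, and most of it was CD14. The defining markers PTPRC and CD3E were at 0.

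**Figure D2:**
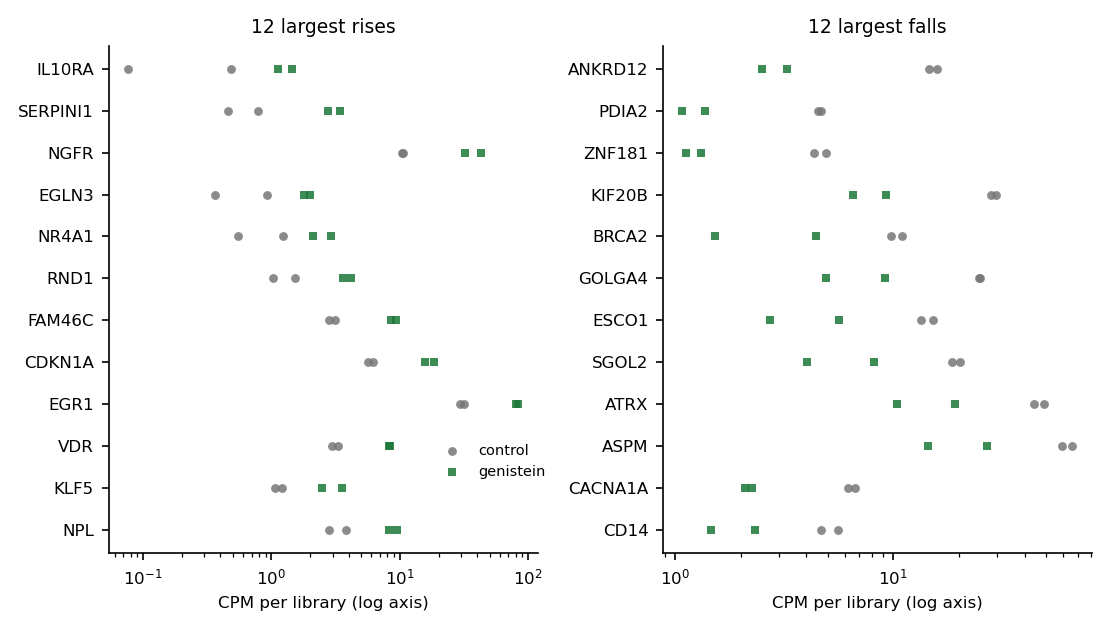
The level of the 12 protein-coding genes with the largest rises (left) and of the 12 with the largest falls (right) is plotted per library in CPM on a log axis, with controls as grey circles and genistein as green squares. Only genes whose groups do not overlap could be among the 24, so this separation is no result. Genistein I lies below genistein II for 10 of the 12 falls.

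Falls were most frequent among long genes of low GC content. The median length of the exons was 6539 bases in the called lower genes, 4332 in the called higher genes and 4469 in all genes tested, and the median GC content was 40.8%, 52.6% and 48.0%. Genes were divided into 10 equal bins by GC content. In the bin of lowest GC content, 14.6% were called lower and 0.444% higher. In the bin with a median GC content of 52.6%, 1.52% were called lower and 8.38% higher. The libraries also differed from each other in this way. In the bin of lowest GC content, the median log2 difference from the control mean was 0.04 and -0.04 in controls I and II and -0.34 and -0.13 in genistein I and II, so both genistein libraries lay below both controls. Genistein I was below genistein II in 540 of the 664 called lower genes, and above it in 471 of the 671 called higher genes. After the trend with GC content was removed from each library, 1727 genes were called, of which 849 were higher, and 496 of the 671 called higher genes (73.9%) and 524 of the 664 called lower genes (78.9%) were again called. The corrected log2 fold change was -1.39 for KIF20B, -1.28 for ASPM, -2.05 for ANKRD12, 1.30 for EGR1 and 1.41 for CDKN1A.

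**Figure D3:**
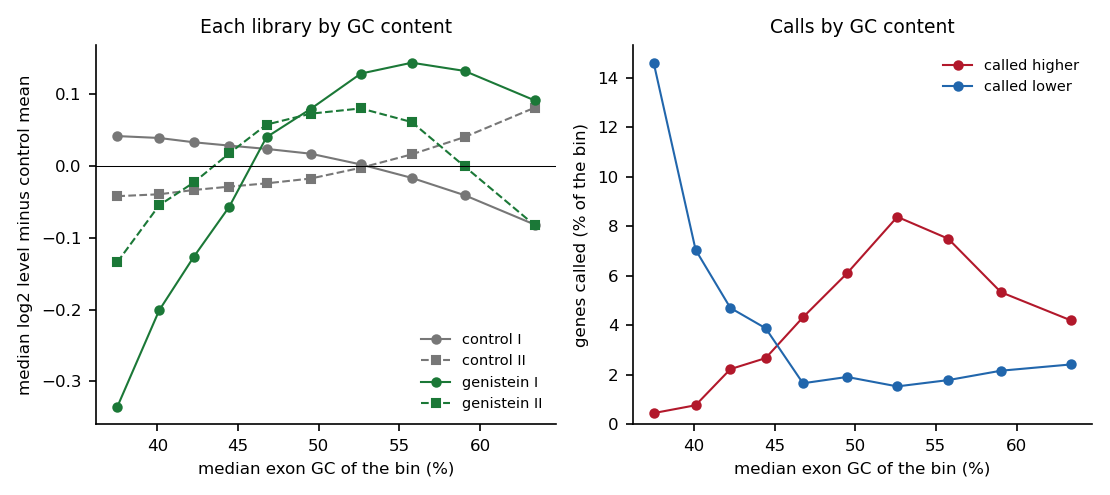
Left, the median log2 level of the genes in each of 10 bins by GC content is drawn per library relative to the control mean. Right, the percentage of genes called higher (red) and lower (blue) in each bin. Both genistein libraries lie under the controls at the lowest GC content, where 14.6% of genes were called lower.

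Part of the immediate early genes rose with genistein. Of the 30 listed genes of AP-1 and the immediate early response, all tested, 11 were called higher (EGR1, IER5, CYR61, IER3, FOS, MAFF, NR4A1, ZFP36, KLF10, JUND and KLF2) and 0 lower. That is 36.7% of the list, against 4.18% of all genes tested, and the median log2 fold change was 0.52 against -0.00 over all genes tested. EGR1, a zinc finger transcription factor (chromosome 5, 137801168 to 137804992), was at 31.4 and 29.6 CPM in control and 83.2 and 80.3 CPM in genistein libraries. The groups were far apart relative to the spread of the replicates, with a log2 fold change of 1.42 (SE 0.11, adjusted p = 0.000109). FOS, the partner of JUN in AP-1, was at 2.74 and 3.59 CPM in control and 9.58 and 7.16 CPM in genistein libraries (log2 fold change 1.37), and IER5 was at 16.3 and 17.9 CPM in control and 33.2 and 35.3 CPM in genistein libraries (log2 fold change 1.01). CYR61, a secreted matrix protein, was at 96.3 and 92.1 CPM in control and 149 and 147 CPM in genistein libraries, and IER3 at 24.4 and 26.5 CPM in control and 45.2 and 40.4 CPM in genistein libraries. JUN itself did not pass, at 55.2 and 55.5 CPM in control and 63.1 and 56.1 CPM in genistein libraries (log2 fold change 0.09), nor did ATF3 at 2.68 and 1.60 CPM in control and 2.82 and 4.57 CPM in genistein libraries (log2 fold change 0.81). With each library left out in turn, 3 of the 30 genes were called higher without control I, 5 without control II, 6 without genistein I and 8 without genistein II. Library size in place of TMM scaling gave 8 higher and 1 lower.

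The promoter of EGR1 is printed because that gene had the smallest adjusted p of this group. The sequence is from RefSeq in build GRCh38.p14, chr5:138465229-138465508, plus strand, 250 bases before the start of the gene and 30 after, and capitals mark 2 matches to the CArG box, the element bound by serum response factor.
EGR1: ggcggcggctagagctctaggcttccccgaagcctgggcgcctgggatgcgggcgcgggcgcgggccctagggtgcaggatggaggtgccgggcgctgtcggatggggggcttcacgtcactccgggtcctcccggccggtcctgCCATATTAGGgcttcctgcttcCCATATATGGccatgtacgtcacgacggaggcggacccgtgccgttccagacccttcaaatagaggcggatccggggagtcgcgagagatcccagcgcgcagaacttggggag
A CArG box, searched for on both strands after the values had been seen, was present in 1.04% of the 9931 tested protein-coding genes with a promoter in the table, in 1 of the 8 immediate early genes called higher with a promoter there (EGR1) and in 1 of 13 that were tested and not called (SRF).

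Of 24 tested ERK feedback phosphatases, Sprouty and ETS genes, 4 were called higher (16.7%) and 1 lower (4.17%), with a median of -0.00. Without control I, 2 were called higher and 0 lower. DUSP5 and DUSP6, phosphatases that act on ERK, were both higher with genistein. DUSP5 was at 9.01 and 8.78 CPM in control and 19.2 and 19.5 CPM in genistein libraries. DUSP6 was at 19.7 and 19.5 CPM in control and 37.4 and 38.0 CPM in genistein libraries. Their log2 fold changes were 1.12 and 0.94, and ETV4 and DUSP14 rose by 0.68 and 0.46 while DUSP16 fell by 0.56. Among the 13 tested EGFR family receptors and ligands, HBEGF was called higher and betacellulin (BTC) lower. HBEGF was at 6.64 and 4.58 CPM in control and 10.8 and 10.4 CPM in genistein libraries. BTC was at 21.2 and 17.6 CPM in control and 12.1 and 12.5 CPM in genistein libraries. They had log2 fold changes of 0.91 and -0.65. EGFR itself passed the adjusted p, at adjusted p = 0.0261, but not the fold criterion, with a log2 fold change of -0.36. After GC correction, 1 of these 13 genes was called higher and 4 lower, and with any 1 library left out BTC was not called. Of 23 tested YAP target genes, 4 were called higher (17.4%: CYR61, CTGF, GADD45B and NUAK2) and 0 lower, with a median of -0.04, and without control I or without control II 1 of them was called. Of 25 tested genes of TGF-beta signaling, 0 were called higher and TGFB3 was called lower (4% of the list), from 5.85 and 5.19 CPM in control to 2.42 and 2.31 CPM in genistein libraries (log2 fold change -1.23). After GC correction, 2 of these 25 genes were called higher and 4 lower, while 0 were called lower without control I and 3 without genistein II.

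Several metallothionein genes rose. Of 9 tested genes of the metallothionein and zinc export list, 5 were called higher (55.6%: MT1X, MT1E, MT1A, MT1G and MT2A) and 0 lower, with a median log2 fold change of 0.65. MT2A was at 533 and 681 CPM in control and 1059 and 849 CPM in genistein libraries. MT1E was at 315 and 330.4 CPM in control and 569 and 498 CPM in genistein libraries. The log2 fold change of MT2A was 0.65 (SE 0.13, adjusted p = 0.00953). MT1X was at 81.7 and 88.1 CPM in control and 176 and 153 CPM in genistein libraries, with a log2 fold change of 0.94 (SE 0.10, adjusted p = 0.000572). MT1A was at 8.53 and 10.4 CPM in control and 21.2 and 18.9 CPM in genistein libraries (log2 fold change 1.09) and MT1G at 8.95 and 10.3 CPM in control and 18.8 and 15.8 CPM in genistein libraries (log2 fold change 0.83). MT1F and MT1M, at 36 counts or fewer in each library, had log2 fold changes of -0.06 and -0.29, and the zinc exporter gene SLC30A1, at 76.5 and 76.3 CPM in control and 95.8 and 108.02 CPM in genistein libraries, missed the threshold at adjusted p = 0.0528. The metallothionein genes are similar copies of each other on chromosome 16, so reads that fit several of them were removed before counting. The number called higher was 3 without control I, 4 without genistein I and 5 without either other library.

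The promoters of MT1X and MT2A are shown since these genes rose and since metallothioneins are known for metal response elements, the sites of the zinc sensor MTF1. Both are from RefSeq in GRCh38.p14 on the plus strand, chr16:56682220-56682499 and chr16:56608334-56608613, with the letters TGCACNC or TGCGCNC in capitals wherever they occur on either strand.
MT1X: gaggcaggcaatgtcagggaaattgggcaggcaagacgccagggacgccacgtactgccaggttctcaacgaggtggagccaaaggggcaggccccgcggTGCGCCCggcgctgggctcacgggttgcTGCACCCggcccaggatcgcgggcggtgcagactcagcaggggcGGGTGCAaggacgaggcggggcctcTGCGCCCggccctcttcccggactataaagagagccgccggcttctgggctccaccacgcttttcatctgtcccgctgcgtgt
MT2A: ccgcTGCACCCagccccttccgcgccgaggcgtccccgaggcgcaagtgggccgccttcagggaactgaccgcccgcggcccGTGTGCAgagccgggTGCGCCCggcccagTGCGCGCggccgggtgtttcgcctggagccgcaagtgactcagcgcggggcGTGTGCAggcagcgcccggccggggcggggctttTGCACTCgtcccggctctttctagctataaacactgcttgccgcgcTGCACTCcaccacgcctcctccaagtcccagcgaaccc
MT1X held 4 matches and MT2A 7. The element, also searched for after the values had been seen, is short, and 39.5% of the tested protein-coding genes with a promoter had at least 1 match. The share was 40.9% among called higher protein-coding genes. Of the called metallothionein genes, only MT1X and MT2A had a promoter to search. Among genes of the list that were not called, SLC30A1 held a match and MTF1 did not.

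Some genes of mitosis fell and a few genes of DNA replication rose. Of 45 tested genes of mitosis, 10 were called lower (22.2%, against 4.13% of all genes tested: ASPM, NUF2, KIF18A, CENPF, NDC80, KIF14, TTK, BUB1B, DLGAP5 and HMMR) and 1 higher (2.22%: CDC20), with a median log2 fold change of -0.13. NUF2 and NDC80, partners in the kinetochore, were both called. NUF2 was at 60.1 and 51.5 CPM in control and 18.8 and 26.6 CPM in genistein libraries. NDC80 was at 83.3 and 83.1 CPM in control and 52.4 and 61.2 CPM in genistein libraries. Both genistein libraries lay below both controls, and the log2 fold changes were -1.29 and -0.54. KIF18A, a kinesin of chromosome alignment, was at 15.7 and 16.4 CPM in control and 4.35 and 7.31 CPM in genistein libraries (log2 fold change -1.43), and CENPF at 153 and 141 CPM in control and 55.6 and 93.0 CPM in genistein libraries (log2 fold change -1.0). The kinetochore kinesin gene CENPE, named after its values were seen, was at 22.0 and 18.5 CPM in control and 2.66 and 5.61 CPM in genistein libraries, and its log2 fold change of -2.28 passed with an adjusted p = 0.000549, but it was not called because its mean FPKM with genistein was not above 1. CDC20, the activator of the anaphase-promoting complex, rose from 429 and 434 CPM in control to 609 and 550.2 CPM in genistein libraries (log2 fold change 0.42). CCNB1, CDK1 and TOP2A did not pass, with log2 fold changes of -0.19, -0.52 and -0.06. The exons of the 10 genes that fell had a GC content from 36.4% (ASPM) to 43.3% (BUB1B), below the median of 48.0%, and after GC correction 7 of the 45 were called lower and 0 higher. Without control I, control II and genistein I, the number called lower was 3, 4 and 4.

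The promoters of 4 called mitosis genes and of KIF20B are printed for the letters TTTGAA, the core of the cell cycle genes homology region (CHR), through which many genes of mitosis are kept low until late in the cycle. Capitals mark it on either strand, and the sequences are from RefSeq in GRCh38.p14, at chr10:89701340-89701619 plus, chr1:197146640-197146919 minus, chr11:28108127-28108406 minus, chr1:163321704-163321983 plus and chr18:2571307-2571586 plus.
KIF20B: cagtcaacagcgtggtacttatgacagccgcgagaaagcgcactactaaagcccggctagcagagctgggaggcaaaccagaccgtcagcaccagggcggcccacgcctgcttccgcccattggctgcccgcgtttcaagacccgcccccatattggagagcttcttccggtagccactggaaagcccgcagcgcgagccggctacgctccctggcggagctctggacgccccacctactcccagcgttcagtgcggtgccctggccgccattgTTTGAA
ASPM: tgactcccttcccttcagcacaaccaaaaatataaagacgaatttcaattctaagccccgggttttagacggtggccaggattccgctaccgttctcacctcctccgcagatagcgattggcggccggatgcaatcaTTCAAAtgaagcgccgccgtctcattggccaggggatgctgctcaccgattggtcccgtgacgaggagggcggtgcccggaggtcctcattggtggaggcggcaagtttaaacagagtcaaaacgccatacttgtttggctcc
KIF18A: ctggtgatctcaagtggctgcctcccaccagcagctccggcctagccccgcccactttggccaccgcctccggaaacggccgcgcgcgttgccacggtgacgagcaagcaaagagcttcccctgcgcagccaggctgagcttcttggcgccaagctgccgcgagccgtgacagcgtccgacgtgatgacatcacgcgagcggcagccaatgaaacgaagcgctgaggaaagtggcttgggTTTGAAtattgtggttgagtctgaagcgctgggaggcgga
NUF2: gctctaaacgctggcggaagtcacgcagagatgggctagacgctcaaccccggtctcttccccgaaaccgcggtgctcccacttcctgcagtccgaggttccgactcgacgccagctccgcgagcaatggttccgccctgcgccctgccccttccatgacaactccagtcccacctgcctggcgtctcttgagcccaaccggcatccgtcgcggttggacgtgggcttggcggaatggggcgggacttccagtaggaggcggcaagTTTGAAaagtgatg
NDC80: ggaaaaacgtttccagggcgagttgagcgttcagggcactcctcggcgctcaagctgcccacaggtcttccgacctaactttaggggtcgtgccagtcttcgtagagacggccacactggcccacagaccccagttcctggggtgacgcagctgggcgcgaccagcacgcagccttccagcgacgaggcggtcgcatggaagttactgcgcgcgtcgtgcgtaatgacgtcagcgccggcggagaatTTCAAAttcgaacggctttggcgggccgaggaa
The letters occurred in all 9 promoters of the 10 genes called lower that were in the table, in 16 of 28 promoters of mitosis genes that were not called (57.1%) and in 9.27% of promoters of tested protein-coding genes. They also occurred in the promoter of CDC20, the mitosis gene called higher. They were absent from that of CENPE, which fell but counts among the genes not called. Over all genes called, they occurred in 14.0% of promoters of genes called lower and 6.71% of those called higher.

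Of 45 tested genes of DNA replication, 5 were called higher (11.1%, against 4.18% of all genes tested: RRM2, GINS4, TK1, E2F1 and PRIM2) and 0 lower, with a median of 0.14. RRM2, the small subunit of ribonucleotide reductase and a target of gemcitabine, was at 549.6 and 534 CPM in control and 787 and 774 CPM in genistein libraries, with a log2 fold change of 0.53 (SE 0.07, adjusted p = 0.00136). GINS4, part of the replicative helicase, was at 92.2 and 86.6 CPM in control and 138 and 138 CPM in genistein libraries. Thymidine kinase TK1 was at 185 and 195 CPM in control and 335 and 276 CPM in genistein libraries. The transcription factor gene E2F1 was at 85.5 and 89.7 CPM in control and 133 and 113.2 CPM in genistein libraries. All 4 genes were higher in both genistein libraries. MCM2 did not pass, at 329 and 333 CPM in control and 398 and 348 CPM in genistein libraries (log2 fold change 0.16). The number called was 2 without control I or without control II and 3 without genistein I. Among 25 tested cyclins, cyclin-dependent kinase inhibitors and pocket protein genes, CDKN1A was called higher and CDKN1B, which encodes p27, lower, at 71.6 and 71.3 CPM in control and 52.4 and 54.6 CPM in genistein libraries (log2 fold change -0.41). CDKN1B was not called with any 1 of the 4 libraries left out. Its log2 fold change ran from -0.45 to -0.30 over the alternative fits.

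Of 25 tested p53 target genes, 3 were called higher (12%: CDKN1A, TP53I3 and POLH) and 1 lower (4%: FAS). The number called higher was 1 without control II and 2 without any other library, and without control I FAS was not called. TP53I3, an oxidoreductase, was at 88.0 and 82.1 CPM in control and 135 and 129.5 CPM in genistein libraries (log2 fold change 0.63). The death receptor gene FAS fell from 11.7 and 10.5 CPM in control to 6.20 and 6.13 CPM in genistein libraries (log2 fold change -0.85). MDM2, the main feedback target, did not pass, with a log2 fold change of -0.41. Of 34 tested genes of the BCL2 family, caspases and death receptors, 3 were called higher (8.82%: BCL2L11, CASP4 and CASP10) and 2 lower (5.88%: FAS and BIRC2). Without control I, 0 of the 34 were called, and without control II 0 were called higher and 1 lower, while without genistein I 3 were higher and 1 lower. BCL2L11, the proapoptotic protein BIM, was at 22.4 and 22.3 CPM in control and 34.6 and 35.8 CPM in genistein libraries (log2 fold change 0.66). Caspase genes CASP4 and CASP10 rose by 0.50 and 0.56, while the apoptosis inhibitor BIRC2 fell by 0.65, and CASP9 did not pass at 0.39. Among 29 tested topoisomerase and DNA damage response genes, BRCA2, the kinase ATM and the end-joining factor XRCC4 were called lower and the kinase CHEK2 higher. ATM was at 36.2 and 33.2 CPM in control and 10.7 and 21.4 CPM in genistein libraries. XRCC4 was at 14.7 and 15.1 CPM in control and 4.27 and 8.25 CPM in genistein libraries. TOP2B, a topoisomerase that genistein is known to inhibit, did not pass, at 85.1 and 83.3 CPM in control and 58.9 and 73.5 CPM in genistein libraries (log2 fold change -0.34). Of the 29 genes, 10.3% were called lower and 3.45% higher. Without control I 0 were called lower, without control II 1 and without genistein I 2, and CHEK2 was not called with any 1 library left out.

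A number of sterol synthesis genes rose. Of 31 tested genes of cholesterol and fatty acid synthesis, 8 were called higher (25.8%, among them INSIG1, TM7SF2, ACLY, SCD, DHCR7, EBP and ACSS2) and 1 lower (3.23%: ELOVL6), and 26 of the 31 had a positive log2 fold change, with a median of 0.28. TM7SF2, a reductase of the pathway, was at 26.3 and 26.6 CPM in control and 60.2 and 50.7 CPM in genistein libraries (adjusted p = 0.00117). INSIG1, the sterol-sensing brake on the pathway, was at 57.8 and 52.2 CPM in control and 92.6 and 98.0 CPM in genistein libraries (log2 fold change 0.79). The letters CCAAT, bound by NF-Y, occurred in all 7 promoters of the called higher genes that were in the table, in 9 of 16 promoters of genes of the list that were not called, in 47.4% of promoters of all called higher protein-coding genes and in 36.4% of promoters of tested protein-coding genes. The number called higher was 4 after GC correction or with library size in place of TMM scaling, and 3, 4 and 4 without control I, control II and genistein I.

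Of 33 tested hypoxia and glycolysis genes, 7 were called higher (21.2%: ALDOC, PKM, ENO2, EPAS1, SLC2A3, EGLN3 and NDRG1) and 0 lower, with a median of 0.16. ALDOC, an aldolase, was at 5.48 and 5.65 CPM in control and 15.9 and 13.0 CPM in genistein libraries (log2 fold change 1.34), and EPAS1, which encodes HIF-2 alpha, at 3.11 and 3.82 CPM in control and 6.84 and 6.65 CPM in genistein libraries (log2 fold change 0.97). The glucose transporter gene SLC2A3 was at 15.8 and 14.5 CPM in control and 23.0 and 24.1 CPM in genistein libraries, and pyruvate kinase PKM rose by 0.40 on the log2 scale. HIF1A did not pass, at 142 and 134 CPM in control and 139.9 and 154 CPM in genistein libraries. Without control I or without control II, 1 of the 33 was called, and without genistein I 3 were.

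The antioxidant and iron storage genes showed 4 calls higher (16.7%) and 1 lower (4.17%) of 24 tested, with a median of 0.17, and 2 calls higher without control I or without control II. NQO1, a quinone reductase, was at 2690 and 2586 CPM in control and 3691 and 3612 CPM in genistein libraries, with a log2 fold change of 0.47 (SE 0.07, adjusted p = 0.00198). Ferritin light chain FTL was at 4735 and 4982 CPM in control and 7410 and 6911 CPM in genistein libraries. Ferritin heavy chain FTH1 was at 596 and 577 CPM in control and 782 and 786 CPM in genistein libraries. Their log2 fold changes were 0.56 and 0.42. FTLP3, a processed pseudogene of FTL (chromosome 20, 4004564 to 4005091), was also higher, at 475 and 502 CPM in control and 789 and 751 CPM in genistein libraries, and reads may be split between the copies. ABCC2 was the gene called lower, and its relative ABCC3 rose by 0.44. HMOX1 and TXNRD1, usual targets of NRF2, did not pass, with log2 fold changes of 0.18 and 0.14. Of 9 tested genes of the aryl hydrocarbon receptor pathway, only NQO1 was called. CYP1A1 was at 15.2 and 16.2 CPM in control and 17.2 and 19.4 CPM in genistein libraries (log2 fold change 0.23). Of 42 tested lysosome and autophagy genes, 4 were called higher (9.52%, among them SQSTM1, NEU1 and TFE3) and 0 lower, and without control I 2 were called. SQSTM1, an autophagy receptor, was at 613 and 625 CPM in control and 1045 and 947 CPM in genistein libraries (log2 fold change 0.68).

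Few genes of the integrated stress response, of amino acid supply and of the endoplasmic reticulum were called. Of 19 tested integrated stress response genes, DDIT3 and PPP1R15A were called higher (10.5%) and 0 lower, with a median of 0.14, and 0 were called without control I and 1 without control II. DDIT3, the transcription factor CHOP, was at 9.50 and 9.70 CPM in control and 17.3 and 18.3 CPM in genistein libraries, with a log2 fold change of 0.89 (SE 0.15, adjusted p = 0.00398). PPP1R15A, a phosphatase subunit that resets translation, was at 26.8 and 27.7 CPM in control and 45.6 and 41.9 CPM in genistein libraries (log2 fold change 0.67). ATF4, TRIB3 and CHAC1 did not pass, with log2 fold changes of 0.21, 0.06 and 0.77. Of 31 tested genes of amino acid synthesis, transport and tRNA charging, ASNS and AARS were called higher (6.45%), by 0.45 and 0.42, and 0 were called higher when either control was left out. Of 21 tested chaperone and unfolded protein response genes of the endoplasmic reticulum, ERN1, the sensor IRE1, was called higher (4.76%) by 0.50. ERN1 was not called with any 1 library left out. The chaperone gene HSPA5 was at 752 and 753 CPM in control and 693 and 713 CPM in genistein libraries (log2 fold change -0.10). Of 22 tested heat shock genes, HSPE1 and CHORDC1 were called lower, by 0.58 and 0.76 (9.09%), against 0 without control I and 1 without control II or genistein I. Of 29 tested calcium genes, 2 were called higher (6.90%), 1 without genistein II and 0 when either control was left out, and after GC correction 3 were called higher and 2 lower. ITPR1, the channel that releases calcium from the endoplasmic reticulum, was at 12 and 11.1 CPM in control and 17.9 and 18.6 CPM in genistein libraries (log2 fold change 0.66). In FPKM the groups of ITPR1 overlapped, at 3.04 and 4.70 in control and 3.19 and 5.75 in genistein libraries. The calcium channel gene CACNA1A, called lower above, was not a member of the list of calcium genes.

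Estrogen receptor genes were at 0 or low. ESR1 had 0 counts in all 4 libraries, where a count of 0 allows up to 3 counts per library, and ESR2 was at 0.244 and 0.306 CPM in control and 0.161 and 0.236 CPM in genistein libraries. GPER1 was at 1.95 and 1.37 CPM in control and 1.69 and 1.37 CPM in genistein libraries. Neither passed, with log2 fold changes of -0.38 and -0.16. Of 17 tested estradiol target genes of breast cells, 0 were called in either direction by limma-voom, and edgeR's quasi-likelihood test called 0 as well. Of the 17, 2 had an unadjusted p under 0.05. Of 25 tested nuclear receptor genes, VDR, NR4A1 and NR1H3, a sensor of oxysterols, were called higher (12%) and 0 lower, with 1 called higher when either control was left out and 2 when either genistein library was, and RXRA did not pass, at 101.5 and 117 CPM in control and 99.0 and 91.0 CPM in genistein libraries. Of 13 tested genes that the study names for genistein, 4 were called higher (VDR, DDIT3, ITPR1 and NR4A1) and 1 lower (MUC1). The study chose them on these samples, so this count is no independent evidence. It was 1 higher without control I and 2 without control II or genistein II, with 1 lower each time.

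Of 7 tested mucin genes, MUC1 and EMCN were called lower (28.6%) and 0 higher, and 1 was called lower without control I, control II or genistein I. MUC1, the membrane mucin of epithelial cells (chromosome 1, 155158300 to 155162707), was at 10.2 and 11.7 CPM in control and 3.87 and 4.15 CPM in genistein libraries, with a log2 fold change of -1.42 (SE 0.18, adjusted p = 0.001003). EMCN, an endothelial sialomucin, was at 6.70 and 6.95 CPM in control and 2.50 and 3.53 CPM in genistein libraries (log2 fold change -1.14). The endothelial cadherin gene CDH5 was at 6.33 and 8.25 CPM in control and 2.17 and 3.02 CPM in genistein libraries, while VWF, KDR and TEK had at most 1 count in any library and PECAM1 had 0. Of 27 tested integrin, laminin and collagen genes, 5 were called lower (18.5%: COL1A2, LAMB2, LAMA5, COL4A1 and COL4A2) and 0 higher, 23 of the 27 had a negative log2 fold change, and the median was -0.22. COL1A2, a chain of collagen I, was at 321 and 325 CPM in control and 217 and 218 CPM in genistein libraries (log2 fold change -0.57). With any 1 of the 4 libraries left out, 1 of the 27 genes was called lower, and after GC correction 7 were.

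Part of the splicing regulators fell. Of 30 tested splicing regulators, 7 were called lower (23.3%: ANKRD12, LUC7L3, RBM39, SRSF11, SRSF6, NKTR and CLK1) and 0 higher, 26 of the 30 had a negative log2 fold change, and the median was -0.20. ANKRD12 stood in this list although it is known as a cofactor of transcription. LUC7L3, of the U1 particle, was at 112.4 and 104.9 CPM in control and 36.6 and 55.6 CPM in genistein libraries (log2 fold change -1.23), and RBM39 at 213 and 212 CPM in control and 112.97 and 147 CPM in genistein libraries (log2 fold change -0.71). In all 7 genes genistein I was the lowest library. The number called lower was 6 after GC correction, 3 without control I, 4 without control II and 4 without genistein I. MALAT1, a nuclear long noncoding RNA (chromosome 11, 65265111 to 65275544), was at 116.3 and 106.3 CPM in control and 28.4 and 52.6 CPM in genistein libraries, with a log2 fold change of -1.48 (SE 0.19, adjusted p = 0.00102). An antisense gene, TALAM1, covers 83.7% of its exons, and the strand setting of the counting is not stated, so reads of the pair may be mixed. The other noncoding genes named by p were RP6-99M1.2, whose exons overlap MIR221 on chromosome X, with a log2 fold change of -2.13, the pseudogene CASP1P2 at -1.03 and NOP14-AS1 at 1.07.

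Most mitochondrially encoded transcripts fell. All 13 tested genes had a negative log2 fold change, 8 of them were called lower (61.5%: MT-ND5, MT-ATP6, MT-CO3, MT-CO1, MT-ND4, MT-ATP8, MT-ND4L and MT-ND6), and the median was -0.42. MT-CO3, a subunit of cytochrome oxidase, was at 6491 and 7201 CPM in control and 4459 and 5032 CPM in genistein libraries, and MT-ATP6, of the ATP synthase, at 2774 and 3416 CPM in control and 1825 and 2057 CPM in genistein libraries. The mitochondrial share of all counts was 4.39% and 4.91% in controls I and II and 3.25% and 3.59% in genistein I and II, so the groups did not overlap, but the controls differed from each other. Without control II, 0 of the 13 were called lower, without genistein I 3 were and without control I 5 were.

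The remaining lists gave mixed or few calls. Of 30 tested interferon-stimulated and MHC class I genes, 4 were called higher (13.3%: IFI35, HLA-E, IRF1 and IFI6) and 4 lower (13.3%: IFIT2, IFIH1, IFIT3 and IFIT5). The higher calls fell to 1 without control I, control II or genistein I, and the lower calls fell to 0 without control I and to 1 without any other library. With GC correction 2 were called higher and 3 lower. IFI35 was at 29.2 and 28.6 CPM in control and 55.0 and 49.4 CPM in genistein libraries. IFIT2 was at 52.7 and 44.2 CPM in control and 26.5 and 27.9 CPM in genistein libraries. Of 29 tested NF-kB genes, TRAF1, NFKB2 and IL10RA were called higher and TNFAIP2 lower (10.3% and 3.45%). In this list 0 were called higher without control I, control II or genistein I, 5 without genistein II or with edgeR or DESeq2, and 8 after GC correction, with 1 lower in each of these fits. Of 30 tested genes of the MYC network and ribosome synthesis, ODC1 was called higher and the nucleolar protein genes NOP58 and GNL3 lower (3.33% and 6.67%), and these 2 were not called without control I, control II or genistein I. After GC correction, 2 of the 30 were called higher and 4 lower. ODC1, the rate-limiting enzyme of polyamine synthesis, was at 397 and 367 CPM in control and 599 and 554 CPM in genistein libraries (log2 fold change 0.59), and MYC did not pass at 0.10. Of 20 tested genes of gemcitabine uptake, activation and targets, RRM2 was called higher and 0 lower, and after GC correction 4 were called higher. KRT18 was called higher among 15 tested epithelial and mesenchymal genes, by 0.42, but 0 were without control I, control II or genistein I.

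**Figure D4:**
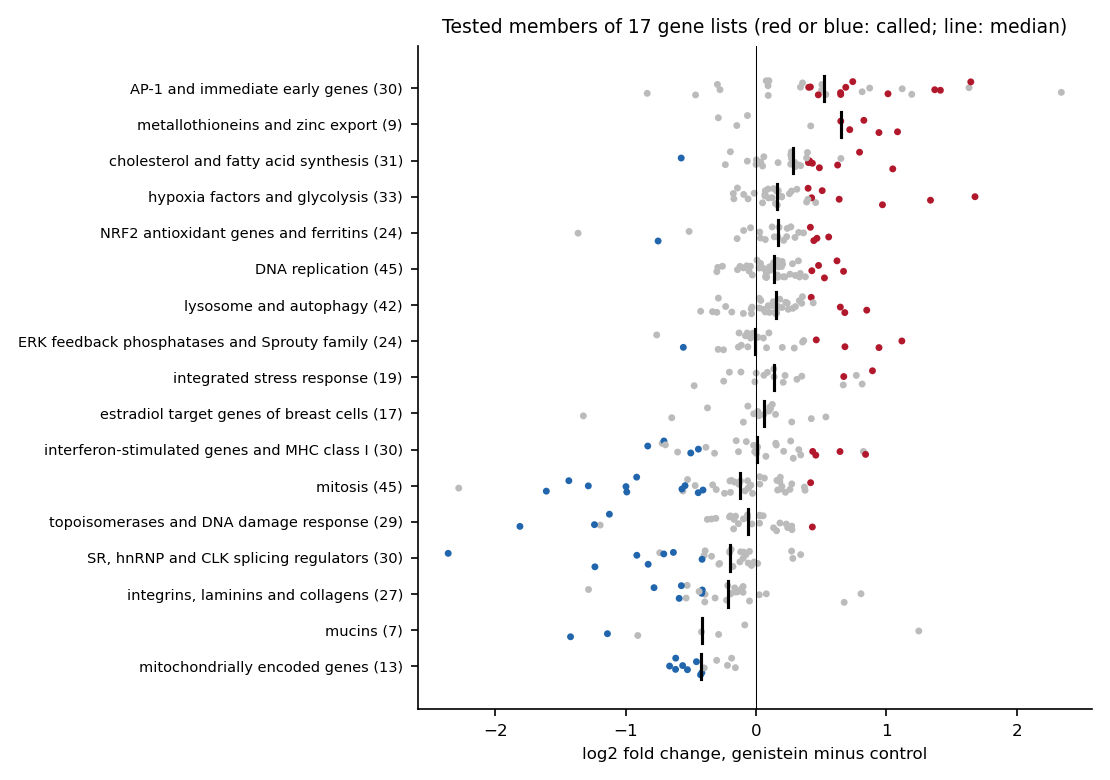
The log2 fold change of every tested member of 17 gene lists is plotted, with called genes in red (higher) or blue (lower), other genes in grey and a black line at each list's median. The number of tested members stands in brackets. Medians run from -0.42 for mucins and mitochondrially encoded genes to 0.65 for metallothioneins and zinc export.

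The same genes were read in the other 4 MiaPaCa2 libraries, in which genistein was added to gemcitabine. There, 945 of 16064 genes were called (5.88%), 651 higher (4.05%) and 294 lower (1.83%). Of the 671 genes called higher against control, 644 (96.0%) were also positive when genistein was added to gemcitabine, and 289 were also called higher. Of the 664 genes called lower, 609 (91.7%) were also negative, and 117 were also called lower. The 406 genes called in the same direction in both comparisons were 30.4% of the calls against control and 43.0% of the calls of the addition, and 1 gene was called in opposite directions. SERPINI1 rose by 2.16 on the log2 scale when genistein was added to gemcitabine, NGFR by 1.38, CDKN1A by 1.0 and INSIG1 by 0.93, while INTS3 fell by 0.81 and KIF20B by 1.31. Across the 16064 genes, which are not independent replicates, Pearson's r of the log2 fold changes was 0.47 and Spearman's coefficient was 0.51. The median over mitochondrially encoded genes was 0.17 on the addition to gemcitabine, with 1 called higher, and the median over immediate early genes was 0.12, with 6 called higher and 1 lower. Without gemcitabine I, without gemcitabine II and without genistein plus gemcitabine I, the number of genes called on the addition was 142, 137 and 1890.

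A test of whether the genistein change differed with and without gemcitabine called 4 of 16064 genes (0.0249%), with 1346 genes at an unadjusted p under 0.05. EGR1 was one of them: it stood at 82.5 and 75.1 CPM with gemcitabine and 85.4 and 92.7 CPM with both drugs, beside 31.4 and 29.6 CPM in controls and 83.2 and 80.3 CPM with genistein alone, and its genistein log2 fold change was 1.42 without and 0.18 with gemcitabine. The difference of the log2 fold changes was -1.24 (adjusted p = 0.00987). CYR61 rose without and fell with gemcitabine, and the noncoding SNHG3, chosen after its values were seen, fell without and rose with it. With the replicate label as a block, 0 genes were called.

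**Figure D5:**
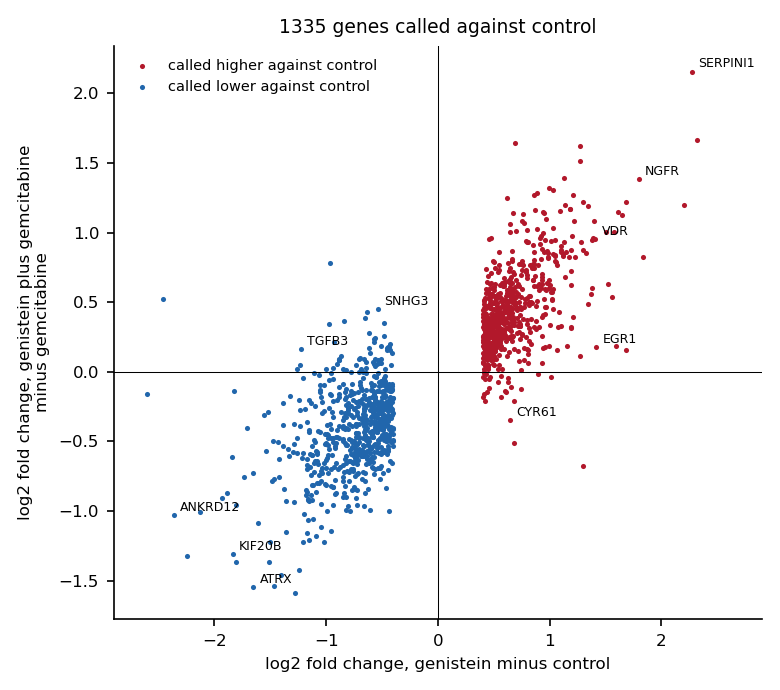
For the 1335 genes called against control, the log2 fold change of genistein relative to control (x axis) is drawn against that of genistein plus gemcitabine relative to gemcitabine (y axis). Of the genes called higher (red), 96.0% lie above the zero line of the y axis, and of those called lower (blue), 91.7% lie below it, with EGR1 close to that line and CYR61 below it.

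In PANC1, the same dose and time called 10 of 16909 genes (0.0591%), with 3252 at an unadjusted p under 0.05, and the median standard error was 0.21 against 0.15 in MiaPaCa2. Of the MiaPaCa2 genes called higher and tested in PANC1, 550 of 661 (83.2%) were positive there, and of those called lower 490 of 626 (78.3%) were negative. The difference between the lines passed for 6 of 17863 genes (0.0336%), with 2057 at an unadjusted p under 0.05. VDR was at 9.78 and 9.89 CPM in PANC1 controls and 9.46 and 9.21 CPM with genistein, against the rise in MiaPaCa2, and the difference of log2 fold changes was -1.53 (adjusted p = 0.0279). FAM46C, RRM2 and, chosen after its values were seen, NPTX1 differed in the same direction, and the noncoding RP11-284F21.10 rose more in PANC1. Leaving out any of the 4 MiaPaCa2 libraries brought this count to 0, while it was 86 without PANC1 control II.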

How the data were processed

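Poly-A RNA of 16 cultures was sequenced as single reads with a stranded kit. The authors aligned the reads to GRCh37 with TopHat2 2.0.4, removed reads that aligned to several places with Picard 1.29 and deposited the raw count per gene from HTSeq 0.6.1. The authors also deposited FPKM values from Cufflinks 2.1.1. Which annotation release and which strand setting served for counting is not given in the sources used here, and the isoform FPKM were not used.

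Counts were tested with limma-voom (limma 3.58.1, edgeR 4.0.16, R 4.3.3) after TMM scaling and filterByExpr. The 8 MiaPaCa2 libraries entered one model with a mean per group, and all 16 libraries entered the test between cell lines. P-values were adjusted by Benjamini-Hochberg over all genes tested, and calls required 0.05 or less for that p, 0.4 or more for the size of the log2 fold change, and over 1 for the mean FPKM of the treated libraries. The differences between contrasts were judged by adjusted p alone. Of 63677 genes, 16064 were tested. Exon length and GC content came from GENCODE on GRCh37, which need not be the authors' release, and promoters from RefSeq on GRCh38.p14, a build other than that of the counts. The GC correction removed a loess trend with span 0.3 from each library. Shares of promoters with a motif were counted on both strands over the 300 bases of each RefSeq entry, and the printed sequences are the first 280 of them with the matches inside these.

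Named genes were the protein-coding called genes that rose most (12) and fell most (12). They were taken among genes with at least 1 CPM in the higher group and no overlap between groups in CPM. To these were added the 6 protein-coding genes with the smallest adjusted p in each direction, up to 6 members of each list with the members that name it, the genes the study names and 5 noncoding genes. Lists and named genes were chosen with earlier results of these data known. Alternatives were edgeR, DESeq2 1.42.0, other scaling, filters and sample sets, a replicate block and leaving out each library. The procedures were tested on simulated data. Some genes of the rule and of the differences between contrasts are not reported here. With 2 replicates per group, the methods call them biological, and p-values measure only the spread between these samples.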

Additional observations from a re-analysis of the deposited data

Results flagged for a closer look

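The genistein change differed between PANC1 and MiaPaCa2 for 6 genes by a test of the difference itself, with 16 libraries in one limma-voom model and an adjusted p of 0.0279 for each. The difference of log2 fold changes, PANC1 minus MiaPaCa2, was, among them, -1.61 for NPTX1, -1.54 for FAM46C, -1.53 for VDR, -0.70 for RRM2 and 1.35 for RP11-284F21.10. NPTX1, a neuronal pentraxin, was at 3.11 and 2.67 CPM and then 6.60 and 6.22 CPM in MiaPaCa2, and at 35.5 and 35.1 CPM and then 28.1 and 24.4 CPM in PANC1. RP11-284F21.10 rose by 0.61 on the log2 scale in MiaPaCa2 and by 2.0 in PANC1.

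With and without gemcitabine, the genistein change of 4 genes differed by the test of that difference in the 8 MiaPaCa2 libraries. The difference of log2 fold changes, with minus without gemcitabine, was, among them, -1.24 for EGR1 and -1.0 for CYR61 (adjusted p = 0.00987 for both) and 0.99 for SNHG3 (adjusted p = 0.0255). CYR61 was at 96.3 and 92.1 CPM in controls, 149 and 147 CPM with genistein, 144 and 149 CPM with gemcitabine and 112.5 and 117 CPM with both. SNHG3 was at 114.7 and 111.8 CPM in controls, 76.3 and 79.7 CPM with genistein, 40.8 CPM in both gemcitabine libraries and 57.9 and 53.7 CPM with both.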

How the results depend on the processing

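The 1335 calls came to 588 with all 16 libraries in one model (408 higher and 180 lower), 229 with limma-trend on log2(FPKM + 1) (161 and 68) and 208 when the log2 fold change had to reach 1 in size (78 and 130). The cause of the first 2 changes was not tested. With library size alone, 41.3% of 1256 calls were higher. The other tests, scalings, filters and sample sets gave 1000 to 1727 calls. Leaving out 1 library gave 176 to 1117 calls. Of 147 named genes that passed, 144 or more did with edgeR, DESeq2 or GC correction, 55 with limma-trend and 65 to 126 with a library left out, and no gene reversed.

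Same-numbered control and genistein libraries did not deviate together (r = -0.088). This cannot show whether they were prepared together, because the difference between replicates followed GC content in opposite directions in the 2 groups. Spearman's coefficient with GC content was -0.344 for the controls and 0.489 for the genistein libraries. The labels do not say whether the numbers mark pairs. With the number as a replicate block, 940 genes were called against control, 501 higher and 439 lower, and 1623 with GC correction added.

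Genes called on the addition of genistein to gemcitabine came to 617 with the replicate block, of which 157 were lower, and without the low-count filter 169 were lower. Numbers of gemcitabine and co-treatment libraries correlated at -0.111, and the crossed pairing, chosen after seeing the data, gave 1091 calls. Leaving out 1 library gave 137 to 1890 calls. The difference between lines passed for 19 genes with edgeR, 1 without the filter, 0 with the block and 0 to 86 with a library left out. The difference by gemcitabine passed for 7 genes with DESeq2 size factors, 0 with the block and 0 to 24 with a library left out. Genes of a few counts per library, such as IL10RA and SERPINI1, are limited by depth.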
